A study of Mus musculus with 7 samples.

Results

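The genes described here encode the WAVE regulatory complex and the WASP proteins of microglia, the resident macrophages of the brain. The list held 10 gene symbols, Wasf2, Cyfip1, Cyfip2, Nckap1l, Abi1, Abi3 and Brk1 on the WAVE side and Was, Wasl and Wipf1 on the WASP side. Each was taken from the deposited count table by its symbol, and all 10 were found among 23420 genes. RNA was sequenced from cortical microglia sorted at postnatal day 30. In the 4 cKO mice both Srgap2 alleles were floxed (Srgap2f/f) and the mice carried Tmem119creErt2, a tamoxifen-inducible recombinase driven from a locus that microglia express. The 3 WT mice were Srgap2f/f without the recombinase. Mice of both groups were given tamoxifen by gavage in 2 doses of 75 ug/g, on postnatal days 8 and 10, and the sort gate took cells positive for CD11b and CX3CR1 with low CD45. The cKO mice differed from the WT mice in carrying the recombinase as well as in losing Srgap2, so the contributions of these cannot be told apart. Sex, litter and batch are not given in the labels.

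WAVE and WASP proteins switch on the Arp2/3 complex, which starts new actin filaments as branches on the side of existing ones. The WAVE complex joins a WAVE protein that carries the Arp2/3-activating end to a CYFIP subunit that binds active Rac, a NCKAP1 subunit, an ABI subunit and the small subunit BRK1. It is inactive until Rac binds, and is known for driving the broad sheets of membrane at a cell's leading edge. WASP and N-WASP are held shut by a fold in the protein that the GTPase Cdc42 opens, and WIP, the product of Wipf1, binds WASP and protects it from degradation. Several subunits exist as a blood-cell form and a broadly expressed or neuronal form, and mutations of human WAS cause an immune deficiency, the Wiskott-Aldrich syndrome. Srgap2 encodes a membrane-binding F-BAR protein that also turns off Rac, and its relative srGAP3 is known as a Rac GTPase-activating protein that binds WAVE.

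Total counts ranged from 27016173 to 35707304 per library, and 11991 genes passed the filter on low counts. Levels are TMM-scaled CPM, a gene's counts per 1000000 counts of its library after TMM scaling, and single libraries are given in the order of their replicate numbers. A gene passed the test where its adjusted p from edgeR's quasi-likelihood test was under 0.05. Srgap2 was at 344, 257, 275 and 212 CPM in the 4 cKO libraries and 979, 691 and 693 CPM in the 3 WT libraries, and it fell by 1.53 on the log2 scale (SE 0.17, adjusted p = 0.0053). Over all genes 43 passed, 38 higher and 5 lower in cKO. The 11 microglia markers summed to 52257 to 60821 CPM in cKO libraries and 61522 to 63885 CPM in WT libraries, with no overlap. Without Tmem119, the gene that drives the recombinase, the other 10 summed to 49252, 56623, 54365 and 56156 CPM in the 4 cKO libraries and 56027, 55354 and 56673 CPM in the 3 WT libraries, and the groups overlapped. Of the 11 markers 5 had a log2 fold change above 0. Tmem119 itself fell to 3707 ± 716 CPM in cKO microglia, against 6557 ± 571 CPM in WT microglia (SD, n = 4 and 3; log2 fold change −0.82, SE 0.15, adjusted p = 0.046). The call on Tmem119 was lost on leaving out any of cKO replicates 2 and 3 and the WT replicates, with adjusted p from 0.10 to 0.22. In such bulk samples fewer cells of a type and less RNA per cell cannot be told apart.

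**Figure D1:**
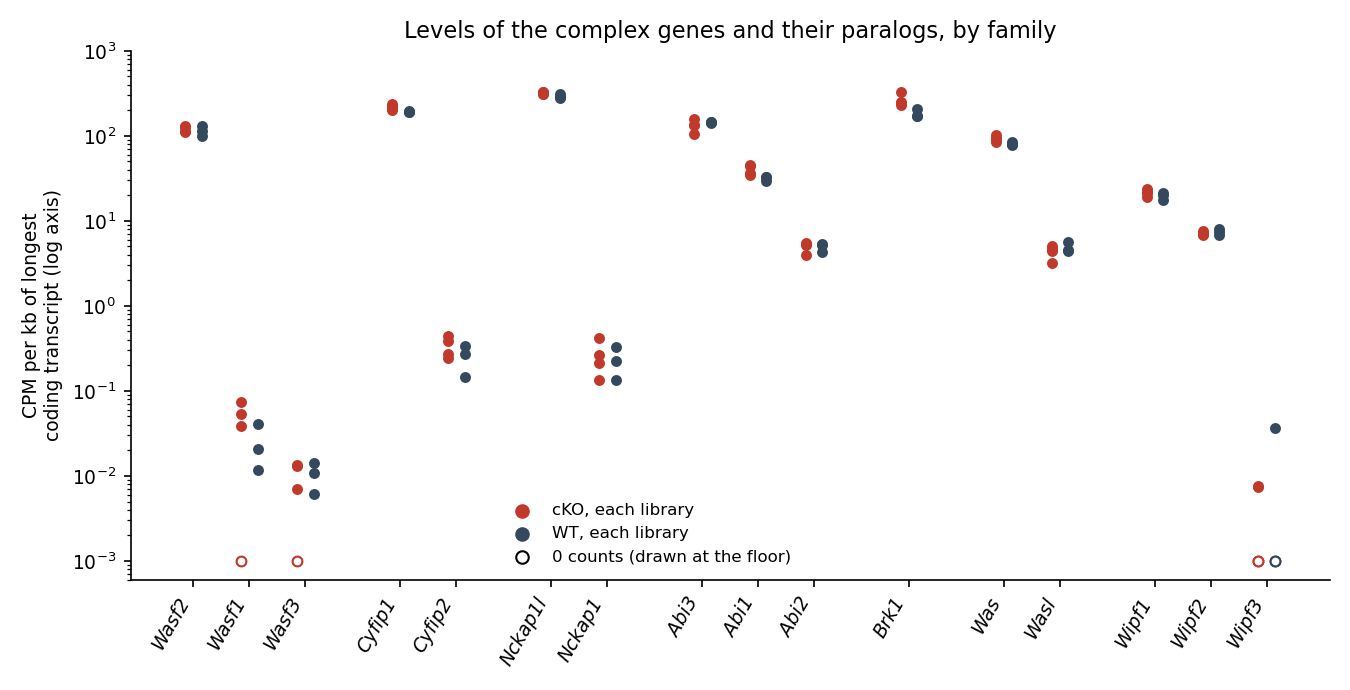
Levels of the 10 genes and of their 6 paralogs, as CPM per kb of the longest coding transcript on a log axis, for each cKO and each WT library, grouped by protein family. Open symbols are libraries with 0 counts, drawn at the floor of the axis. In each of the WAVE, NCKAP1 and CYFIP families a single gene lies far above its paralogs.

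To place the subunits on 1 scale, CPM was divided by the length of each gene's longest coding transcript. Per kb, Nckap1l was the highest member in both groups, at 319.8 ± 9.63 CPM per kb in cKO and 291 ± 15.8 CPM per kb in WT (SD, n = 4 and 3, here and below). Nckap1l, also called Hem1, is the NCKAP1 subunit of blood cells. Brk1 followed in cKO at 263 ± 45.6 CPM per kb, against 183 ± 20.8 CPM per kb in WT, and Cyfip1 was at 216 ± 14.4 in cKO and 193 ± 4.00 in WT on the same scale. In both groups the levels per kb of Cyfip1 and Brk1 lay within their spread of each other at 1 SD.

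Abi3 had 132 ± 21.6 CPM per kb in cKO and 144 ± 2.82 CPM per kb in WT, and Wasf2 had 120.2 ± 9.07 CPM per kb in cKO and 115 ± 15.1 CPM per kb in WT. These neighbours lay within each other's spread in cKO, and in WT they did not overlap at 1 SD. Was, the blood-cell WASP gene, came next at 93.4 ± 7.64 CPM per kb in cKO and 80.6 ± 2.78 CPM per kb in WT. Abi1 followed at 40.1 ± 5.17 CPM per kb in cKO and 31.7 ± 1.87 CPM per kb in WT, and Wipf1 at 21.4 ± 1.94 CPM per kb in cKO and 19.7 ± 1.80 CPM per kb in WT. The lowest members were Wasl, the N-WASP gene, at 4.36 ± 0.786 CPM per kb in cKO and 4.89 ± 0.623 CPM per kb in WT, and Cyfip2 at 0.335 CPM per kb in cKO and 0.251 CPM per kb in WT.

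The order among the highest 5 genes depended on the transcript used. With the median length of a gene's coding transcripts in place of the longest, Cyfip1 came first, at 333 CPM per kb in cKO and 297 CPM per kb in WT. Nckap1l then had 320 CPM per kb in cKO and 291 CPM per kb in WT, and Wasf2 had 303 CPM per kb in cKO and 291 CPM per kb in WT. The same 5 genes stood above the rest with either length. The transcript of Brk1, at 1095 bases, was the shortest of the 10.

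In the WAVE, NCKAP1 and CYFIP families the paralogs were far apart. Of the 3 WAVE genes, Wasf2 had 17372 to 23285 counts per library over both groups, while Wasf1, the neuronal WAVE gene, had 0 to 6 counts and Wasf3 had 0 to 2 counts. Wasf1 came to 0.0416 CPM per kb in cKO and 0.0242 CPM per kb in WT. Nckap1, the broadly expressed counterpart of Nckap1l, had 17 to 53 counts, which was 0.0392% to 0.130% of the Nckap1l count in cKO libraries and 0.0425% to 0.112% in WT libraries. Nckap1 came to 0.257 CPM per kb in cKO and 0.228 CPM per kb in WT. Cyfip2, which neurons express strongly, stood at 0.208%, 0.168%, 0.136% and 0.125% of the Cyfip1 count in the 4 cKO libraries and at 0.181%, 0.143% and 0.0801% in the 3 WT libraries. The groups overlapped in both ratios. The 9 neuronal markers summed to 8.05 to 10.6 CPM in cKO libraries and 6.69 to 11.7 CPM in WT libraries, with Camk2a the highest at 7.28 ± 1.17 CPM in cKO microglia and 6.95 ± 2.46 CPM in WT microglia. Whether the few counts of Cyfip2 and Nckap1 came from other cells was not tested.

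In the ABI and WASP families more than a single gene was present. Abi2 had 4.99 CPM per kb in cKO and 4.95 CPM per kb in WT, below both Abi1 and Abi3. Wipf2, which encodes a relative of WIP, had 7.12 CPM per kb in cKO and 7.37 CPM per kb in WT, and Wipf3 had 0 to 6 counts per library. Of the 6 paralogs 3 passed the filter, and 0 of these passed the test. The log2 fold change was 0.16 for Nckap1 (SE 0.43, adjusted p = 0.90), 0.01 for Abi2 (SE 0.14, adjusted p = 0.98) and −0.05 for Wipf2 (SE 0.11, adjusted p = 0.86).

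All 10 members passed the filter, and in the comparison of cKO with WT 0 of them passed the test in either direction, where 0.317% of genes tested were called higher and 0.0417% lower. Of the members, 8 had a log2 fold change above 0 and 2 below 0, and their median was 0.15. Over all genes tested 48.1% had a log2 fold change above 0 and the median was −0.01. Brk1 and Abi1 had unadjusted p under 0.05, both with higher levels in cKO, as did 9.65% of all genes in that direction. In 5 of the 10 members, Was, Nckap1l, Cyfip1, Abi1 and Brk1, every cKO library lay above every WT library, against 8.86% of all genes tested. There were 0 members with every cKO library below every WT library, against 7.2% of all genes. The count of 5 rested on small gaps for Was and Nckap1l, and it was 3 of 10 with upper-quartile scaling, against 7.66% of genes under that scaling, where Was and Cyfip1 overlapped.

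**Figure D2:**
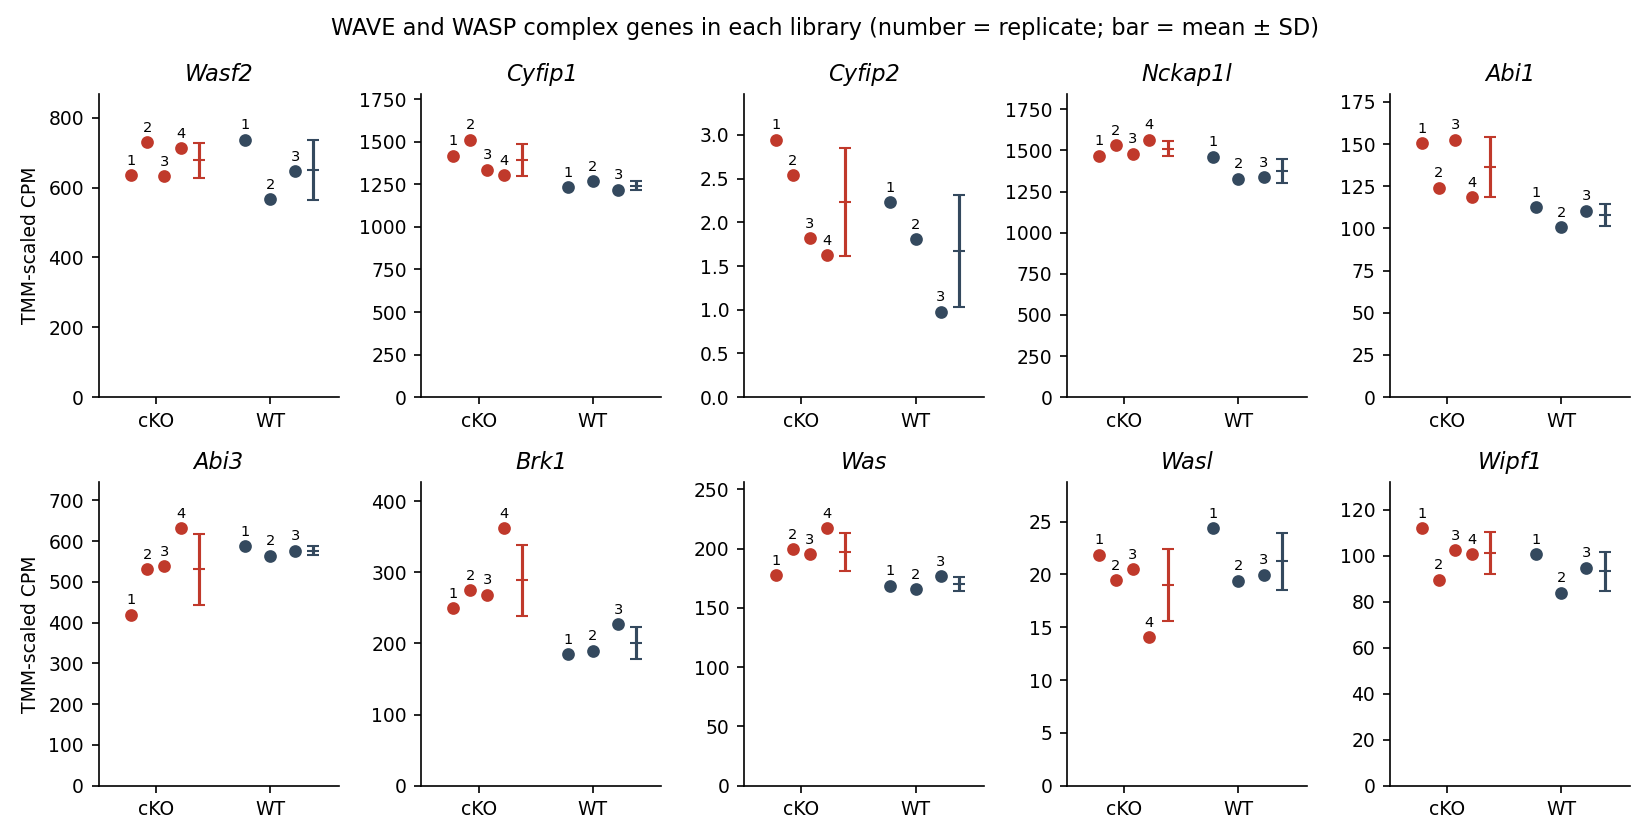
TMM-scaled CPM of each of the 10 genes in each library, cKO left and WT right, on linear axes that start at 0. Points are libraries numbered by replicate and bars are group means with SD. All 4 cKO points of Brk1 lie above its WT points, and the Abi3 points of cKO spread from 420.0 to 632 CPM where those of WT lie between 565 and 587 CPM.

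On the WAVE side, Wasf2, which encodes the WAVE protein that activates Arp2/3, was at 636, 730.3, 632 and 714 CPM in the 4 cKO libraries and at 737, 567 and 647 CPM in the 3 WT libraries. The highest and the lowest library were both WT, and the groups overlapped throughout. Its log2 fold change was 0.06 (SE 0.12, 95% interval −0.20 to 0.32, adjusted p = 0.85).

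Cyfip1 encodes the subunit that binds Rac, and it also binds the translation repressor FMRP. Its level was 1417, 1511, 1336 and 1303 CPM in cKO microglia and 1233, 1269 and 1219 CPM in WT microglia. All cKO libraries stood above all WT libraries, and the closest pair was cKO replicate 4 and WT replicate 2. The difference did not pass the test, with a log2 fold change of 0.17 (SE 0.10, 95% interval −0.06 to 0.39, adjusted p = 0.45).

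Cyfip2 had 35 to 85 counts per library, which came to 2.94, 2.54, 1.82 and 1.62 CPM in cKO microglia and 2.23, 1.81 and 0.977 CPM in WT microglia. Both groups spread widely, with a coefficient of variation of 27.6% in cKO and 38.1% in WT, and they overlapped. The log2 fold change of 0.42 had an SE of 0.33 and a 95% interval from −0.30 to 1.15 (adjusted p = 0.57).

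Nckap1l was at 1467, 1533, 1480.3 and 1565 CPM in cKO microglia and at 1461, 1328 and 1337 CPM in WT microglia. Its cKO values were the closest together of the 10 genes, with a coefficient of variation of 3.01%, and the lowest of them cleared the highest WT value by a narrow margin. The log2 fold change was 0.14 (SE 0.10, 95% interval −0.08 to 0.35, adjusted p = 0.54), the smallest SE among the members.

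Abi1 and Abi3 had log2 fold changes of opposite sign, and neither passed the test. Abi1, which links the complex to signalling proteins such as the kinase Abl, was at 151, 124, 153 and 118 CPM in cKO microglia and 113, 101 and 111 CPM in WT microglia. The cKO libraries formed a higher pair, replicates 1 and 3, and a lower pair that approached the WT level. The mean was 136.5 ± 17.6 CPM in cKO microglia and 108 ± 6.35 CPM in WT microglia, a log2 fold change of 0.34 (SE 0.12, 95% interval 0.07 to 0.60, unadjusted p = 0.017, adjusted p = 0.20).

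Abi3, a member of the same family whose human gene has been linked to the risk of Alzheimer's disease, was at 420.0, 532, 539 and 632 CPM in cKO microglia and 587, 565 and 577 CPM in WT microglia. The 3 WT libraries lay close together, with a coefficient of variation of 1.96%, the lowest of the 10 genes. The cKO libraries spread on both sides of them, with a coefficient of variation of 16.3%. The log2 fold change was −0.12 (SE 0.13, 95% interval −0.41 to 0.17, adjusted p = 0.71).

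**Figure D3:**
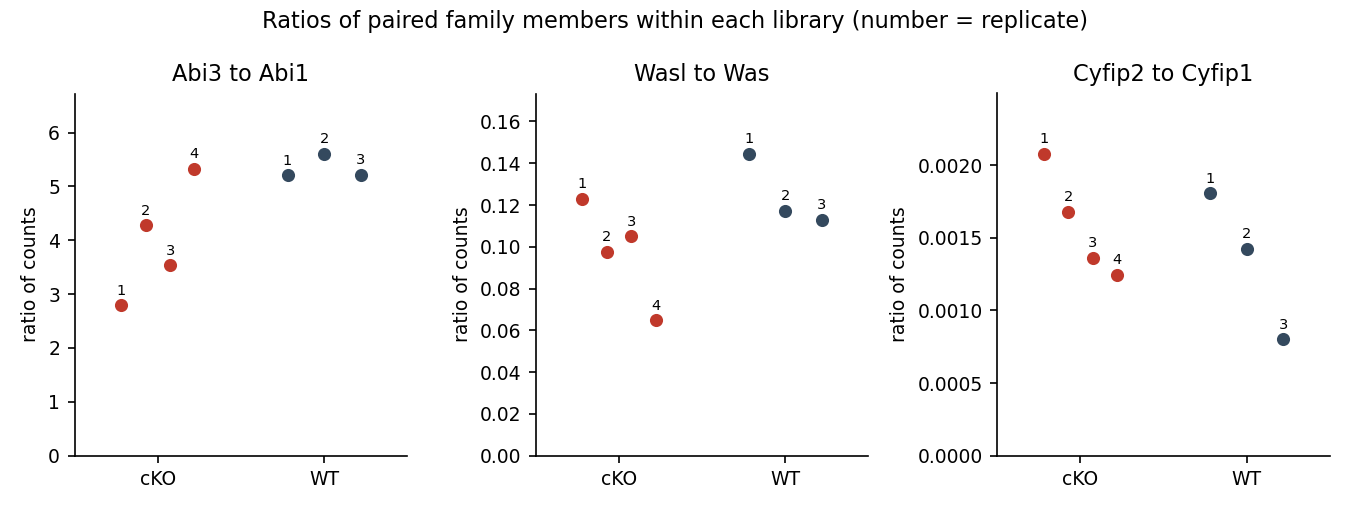
Ratios of counts within each library, cKO left and WT right, for Abi3 to Abi1, Wasl to Was and Cyfip2 to Cyfip1, which do not depend on how libraries are scaled. They were not adjusted for GC content. In Abi3 to Abi1, cKO replicates 1 to 3 lie between 2.79 and 4.28 and below every WT library, and cKO replicate 4 lies among the WT libraries.

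The ratio of Abi3 to Abi1 counts within a library does not depend on library scaling, and it was not adjusted for GC content. It was 2.79, 4.28, 3.53 and 5.33 in the 4 cKO libraries and 5.21, 5.604 and 5.22 in the 3 WT libraries. In 3 of 4 cKO libraries it lay below every WT library, and cKO replicate 4 lay within the WT range. The mean was 3.98 ± 1.08 in cKO and 5.35 ± 0.224 in WT, described here without a test. GC content was 59.7% for the longest coding transcript of Abi3 and 41.0% for that of Abi1. With GC and length offsets the log2 fold change was −0.02 for Abi3 and 0.35 for Abi1. The part of GC content in the ratio was not tested. In the GENCODE M21 annotation, exons of Abi1 overlap on the opposite strand with Pdss1, at 1.98 ± 0.329 CPM in cKO microglia and 2.28 ± 0.638 CPM in WT microglia. Exons of Abi3 overlap in the same way with Phospho1, at 5.11 ± 0.346 CPM in cKO microglia and 5.53 ± 1.66 CPM in WT microglia, with Gngt2, at 67.6 ± 14.8 CPM in cKO microglia and 55.4 ± 6.19 CPM in WT microglia, and with Zfp652, at 60.7 ± 5.15 CPM in cKO microglia and 64.8 ± 5.57 CPM in WT microglia. Those of Cyfip1 overlap with Nipa2, at 62.0 ± 7.99 CPM in cKO microglia and 57.7 ± 4.19 CPM in WT microglia. The strand setting of the counting is not given in the sources used here, so reads in these overlaps cannot be assigned with certainty.

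Brk1, the smallest subunit of the WAVE complex, had the smallest p of the 10 genes. It was at 249, 275, 269 and 362 CPM in the 4 cKO libraries and 185, 189.5 and 227 CPM in the 3 WT libraries. Every cKO library was above every WT library, and cKO replicate 4 was the highest by a wide margin. The mean was 288 ± 50.0 CPM in cKO microglia and 200.3 ± 22.8 CPM in WT microglia, which is 1.44-fold, with a 95% interval from 1.16-fold to 1.79-fold. On the log2 scale this was 0.53 (SE 0.14), with an unadjusted p of 0.0032 and an adjusted p of 0.13.

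On the WASP side, Was was at 178, 199, 195 and 217 CPM in cKO microglia and 169, 166 and 177 CPM in WT microglia. The lowest cKO library and the highest WT library were almost level, and no library of either group crossed. The log2 fold change of 0.21 did not pass the test (SE 0.10, 95% interval −0.01 to 0.44, adjusted p = 0.33).

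Wasl was at 21.9, 19.5, 20.5 and 14.1 CPM in cKO microglia and 24.4, 19.4 and 20.0 CPM in WT microglia. A single cKO library, replicate 4, lay below the rest, and the other 3 were within the WT range. Its log2 fold change was −0.16 (SE 0.17, 95% interval −0.53 to 0.20, adjusted p = 0.67), and −0.04 without cKO replicate 4. The ratio of Wasl to Was counts was 0.123, 0.0976, 0.105 and 0.0648 in cKO and 0.144, 0.117 and 0.113 in WT, and cKO replicate 1 lay within the WT range while the other 3 lay below it. This ratio too was not adjusted for GC content, which was 43.7% for the longest coding transcript of Wasl and 55.8% for that of Was.

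Wipf1, which encodes the partner that stabilises WASP, was at 112, 89.6, 102 and 101 CPM in cKO microglia and 101, 84.0 and 94.8 CPM in WT microglia. The groups overlapped, and the log2 fold change was 0.12 (SE 0.12, 95% interval −0.13 to 0.37, adjusted p = 0.66).

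**Figure D4:**
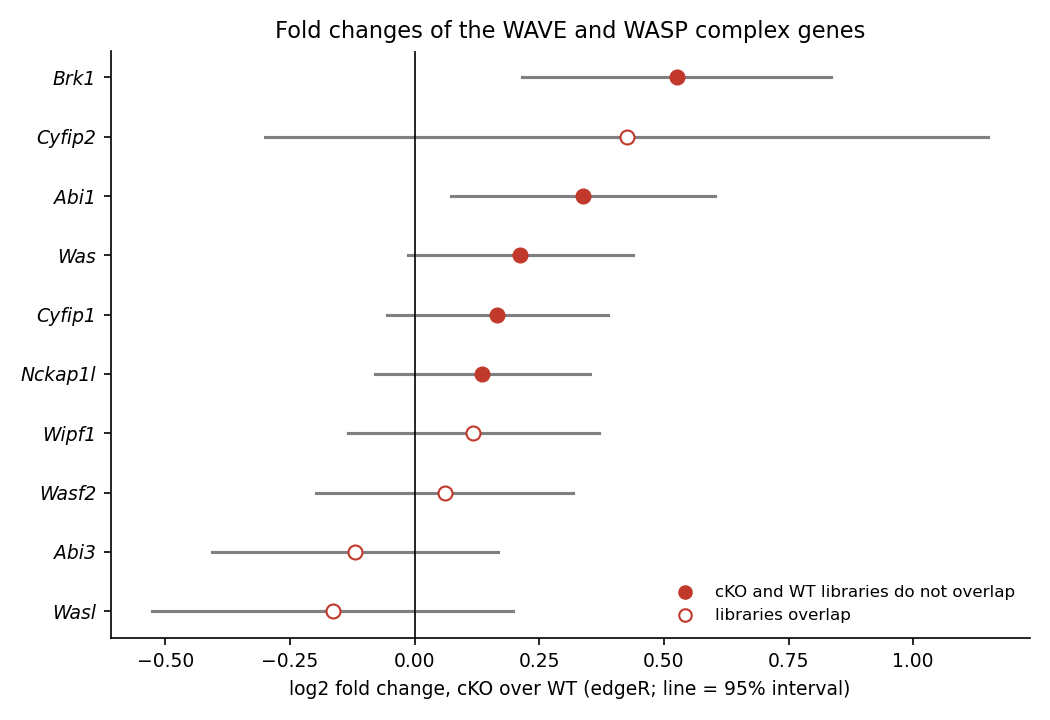
Log2 fold change of each of the 10 genes, cKO over WT, with its 95% interval. Filled symbols mark the 5 genes in which every cKO library lay above every WT library. The intervals of Brk1 and Abi1 lie above 0 before adjustment for the number of genes tested.

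The libraries that held the highest and lowest level of each member were counted. In cKO replicate 4, 4 of the 10 genes had their highest level, and in WT replicate 2, 5 of the 10 genes had their lowest. The share over all genes was not computed. In the 5 members without overlap the highest library is cKO and the lowest WT by definition. Within the lower run of mouse numbers, with 2 cKO mice and 1 WT mouse, the log2 ratio of the cKO mean to the WT mean was 0.50 for Brk1, 0.29 for Abi1 and 0.16 for Was, and 6 of 10 members were above 0. Within the higher run, with 2 mice of each group, it was 0.60 for Brk1, 0.36 for Abi1 and 0.27 for Was, and 9 of 10 members were above 0. The labels do not say what the runs stand for. Libraries also differed in Xist, the RNA of the inactive X chromosome. Among those with Xist above 1 CPM, 2 of each group, the log2 ratio was 0.61 for Brk1, 0.20 for Abi1 and 0.28 for Was. Among those under it, 2 cKO and 1 WT, it was 0.48 for Brk1, 0.43 for Abi1 and 0.14 for Was. These 3 genes are among the 5 members whose groups do not overlap, so every such subset gives a ratio above 0 for all 5. The counts of 6 and 9 members include these 5, and the share over all genes in the subsets was not computed. Wasf2 had −0.11 in the lower run and 0.15 in the higher run, and Abi3 had −0.30 in the lower run and 0.04 in the higher run.

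**Figure D5:**
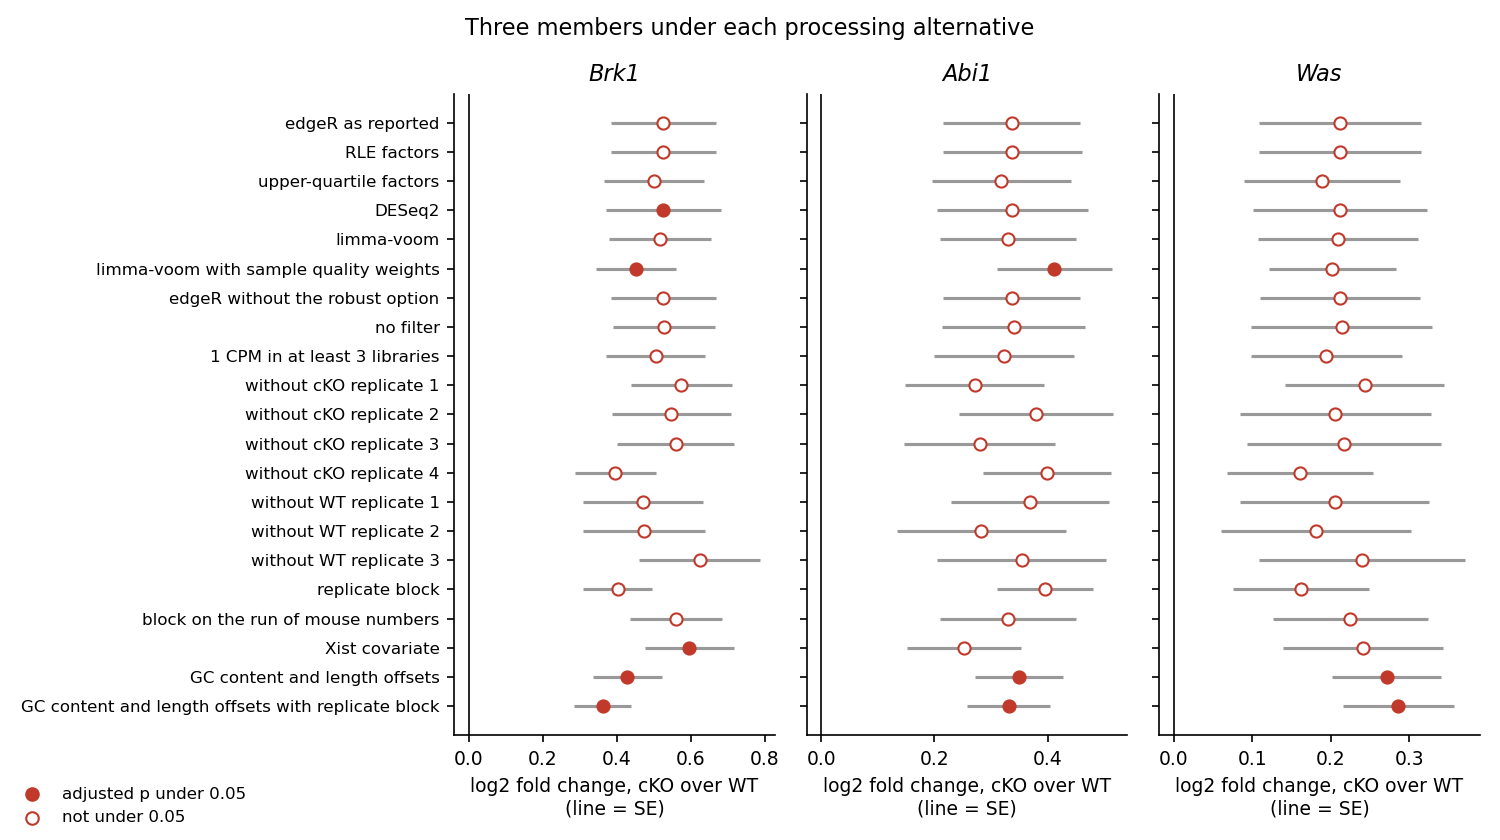
Log2 fold changes, cKO over WT, with SE for Brk1, Abi1 and Was under each way of processing the counts that was tried. Filled symbols have an adjusted p under 0.05. All values of the 3 genes lie above 0, and which of them pass depends on the model. The fits reuse the same libraries, so their shared sign is not independent support.

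Under 5 of the 20 alternatives at least 1 member passed. Brk1 passed in DESeq2 (adjusted p = 0.024), where 3.12% of all genes were called higher, and it passed with log2 CPM of Xist as a covariate (log2 fold change 0.60, adjusted p = 0.008), where 6.21% of genes were called higher. With sample quality weights in limma-voom Brk1 and Abi1 passed, at adjusted p of 0.035 and 0.037, and 4.27% of genes were called higher. With GC and length offsets Brk1, Abi1 and Was passed, at adjusted p of 0.030, 0.031 and 0.048, and 4.39% of genes were called higher. The same 3 passed with the replicate block added, where 4.28% of genes were called higher. Under that block cKO replicate 4 did not add to the estimate of the group difference. With the offsets the log2 fold change was 0.43 for Brk1, 0.35 for Abi1 and 0.27 for Was, against 0.53, 0.34 and 0.21 without them. With the block added it was 0.36, 0.33 and 0.29. The SE of Brk1 was 0.09 with the offsets and 0.14 without them. Over all 20 alternatives the log2 fold change ranged from 0.36 to 0.62 for Brk1 (adjusted p from 0.008 to 0.40), from 0.25 to 0.41 for Abi1 (adjusted p from 0.031 to 0.53) and from 0.16 to 0.29 for Was (adjusted p from 0.048 to 0.64). The other 7 members passed in 0 of 20.

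Downstream of the WAVE and WASP proteins stands the Arp2/3 complex. Of its 9 subunit genes 2 passed, 0 lower, and all 9 had log2 fold changes above 0, with a median of 0.39. For this list and those that follow, the shares over all genes tested were 0.317% called higher, 0.0417% called lower and 48.1% above 0. The median over all genes was −0.01. Arpc2, which encodes a subunit that contacts the mother filament, rose to 693 ± 48.7 CPM in cKO microglia, against 446 ± 20.7 CPM in WT microglia (log2 fold change 0.63, SE 0.10, adjusted p = 0.032), and its adjusted p was 0.10 to 0.24 on leaving out any of cKO replicates 2 and 3 and the WT replicates. Arpc5 rose to 230.1 ± 5.21 CPM in cKO microglia, against 159 ± 10.99 CPM in WT microglia (log2 fold change 0.54, SE 0.10, adjusted p = 0.048). Its call was lost with upper-quartile scaling (adjusted p = 0.055) and on leaving out any single library other than cKO replicate 1 (adjusted p from 0.056 to 0.26).

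Upstream of the complexes stand small GTPases, of which Rac opens the WAVE complex and Cdc42 opens WASP. Of 7 GTPase genes tested 0 passed. All 7 had log2 fold changes above 0, against 48.1% of all genes tested, with a median of 0.41. Cdc42 was at 919.8 ± 54.2 CPM in cKO microglia and 636 ± 28.6 CPM in WT microglia (log2 fold change 0.53, SE 0.10, adjusted p = 0.058). Rhoa, which encodes the GTPase that drives actin contraction, was at 578 ± 54.6 CPM in cKO microglia and 405.5 ± 8.97 CPM in WT microglia (log2 fold change 0.51, SE 0.11, adjusted p = 0.075).

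The regulators of these GTPases were split in direction. Exchange factors load Rac or Cdc42 with GTP. Of 24 genes of such factors or their partners (Elmo1 and Elmo2), 0 passed. Log2 fold changes were above 0 in 14 of the 24, with a median of 0.06. The smallest p among them belonged to Fgd3, a Cdc42 exchange factor, at 44.4 ± 5.31 CPM in cKO microglia and 68.5 ± 6.80 CPM in WT microglia (log2 fold change −0.63, SE 0.12, adjusted p = 0.060), followed by Fgd2 at −0.28 (SE 0.11, adjusted p = 0.23). Of 15 GTPase-activating proteins tested 0 passed and 6 were above 0, with a median of −0.02. Arhgap30 was at 134 ± 15.0 CPM in cKO microglia and 179 ± 22.8 CPM in WT microglia (log2 fold change −0.42, SE 0.12, adjusted p = 0.15). Srgap3, the relative of Srgap2 whose product binds WAVE, was at 3.90 ± 0.71 CPM in cKO microglia and 5.89 ± 0.467 CPM in WT microglia (log2 fold change −0.60, SE 0.19, adjusted p = 0.16).

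Among the 22 adaptors, kinases and membrane-curving partners tested, 0 passed and 17 had log2 fold changes above 0, with a median of 0.11. Sh3kbp1, the gene of the adaptor CIN85, was at 119 ± 10.01 CPM in cKO microglia and 85.0 ± 8.55 CPM in WT microglia (log2 fold change 0.48, SE 0.12, adjusted p = 0.10). Fyn, a Src-family kinase gene, was at 44.0 ± 2.07 CPM in cKO microglia and 35.1 ± 1.86 CPM in WT microglia (log2 fold change 0.33, SE 0.10, adjusted p = 0.16). Of 8 genes that restrain or stabilise Arp2/3 branches 0 passed and 7 were above 0, with a median of 0.23. In that list Gmfg, which encodes a protein that removes branches, had a log2 fold change of 0.52 (SE 0.16, adjusted p = 0.16), and Hcls1, the blood-cell form of cortactin, had 0.37 (SE 0.12, adjusted p = 0.17).

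The other nucleation factors of the WASP family, which serve endosomes and other membranes, included 0 of 7 that passed, with 5 above 0 (4 with upper-quartile scaling) and a median of 0.10. The smallest p values there belonged to the WASH complex genes listed as Fam21 (log2 fold change 0.26, SE 0.11, adjusted p = 0.25) and E430025E21Rik (0.25, SE 0.11, adjusted p = 0.28). Of the 6 genes around FMRP, the translation repressor that CYFIP1 binds, 0 passed and 3 were above 0, with a median of 0.03. Eif4e, the cap-binding factor that CYFIP1 also contacts, was at 37.9 ± 1.57 CPM in cKO microglia and 30.0 ± 1.25 CPM in WT microglia (log2 fold change 0.34, SE 0.11, adjusted p = 0.16), and Nufip2 had −0.28 (SE 0.22, adjusted p = 0.58).

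Several members are expressed by blood cells in general, so the markers of other cell types were set beside them. The monocyte and neutrophil markers, 9 of 10 listed in the table, summed to 8.15 to 10.1 CPM in cKO microglia and 5.88 to 10.5 CPM in WT microglia, with Retnlg and Mpo at 0 counts in every library. The lymphocyte markers, 9 of 10 in the table, summed to 35.1 to 61.1 CPM in cKO microglia and 40.4 to 54.0 CPM in WT microglia, nearly all of it Cd79b. Markers of border-associated macrophages summed to 70.2 to 131 CPM in cKO microglia and 75.9 to 113 CPM in WT microglia. The groups overlapped in all 3 lists. Astrocyte markers summed to 88.4 to 141 CPM in cKO microglia and 134 to 140.2 CPM in WT microglia, and oligodendrocyte lineage markers to 225 to 332 CPM in cKO microglia and 226 to 257 CPM in WT microglia. Endothelial and mural markers summed to 53.0 to 72.4 CPM in cKO microglia and 67.7 to 76.0 CPM in WT microglia, with Cldn5, Slco1a4, Ly6c1 and Rgs5 at 0 counts in every library. Erythroid markers summed to 1.42 to 20.6 CPM in cKO microglia and 0.475 to 6.56 CPM in WT microglia, with Hba-a1 and Hba-a2 at 0. These ranges also overlapped. By library, astrocyte sums were 140.7, 91.0, 99.3 and 88.4 CPM in cKO and 135, 134 and 140.2 CPM in WT. Endothelial and mural sums were 64.4, 72.4, 53.2 and 53.0 CPM in cKO and 75.0, 76.0 and 67.7 CPM in WT. In each of these lists a single cKO library made the overlap, and the others lay below every WT library. The counting rule is not given in the sources used here, so 0 counts of a marker cannot be read with certainty as its absence. The part of other cells in the levels of the members was not tested.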

How the data were processed

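RNA was measured in 7 libraries, and the labels name a different mouse for each. The authors deposited whole-number counts per gene, without normalization. DRAGEN and GRCm39 are named in the submitters' processing notes, while annotation, counting rule and strand setting were not given in the sources used here. Pairs of libraries within a group differed beyond counting error (chi-square per degree of freedom 18.0 to 93.1).

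Of 23420 genes 7033 had no count. The filter was edgeR's filterByExpr (edgeR 4.0.16 in R 4.3.3) at a minimum count of 10 and a minimum total of 15, libraries were TMM-scaled, and 4 cKO were compared with 3 WT libraries by the robust quasi-likelihood F test, with Benjamini-Hochberg adjustment over 11991 genes and a threshold of 0.05. SE was taken as the size of the log2 fold change over the square root of F. The fit was tested on simulated counts for the direction and size of fold changes set in advance. Those counts held no trend of libraries with GC content, length or Xist. Transcript length and GC content came from GENCODE M21 (GRCm38) for 99.2% of genes tested, and synonyms from a RefSeq table (GRCm38.p6). Of 197 genes in 10 pathway and 9 marker lists 194 were matched, 9 by a synonym.

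The members and lists were chosen with earlier results of these data known. Named are all members and their paralogs and, of each pathway list, genes past the threshold or otherwise the 2 with the smallest p; of the marker lists, the highest genes and those at 0 counts. Alternatives were RLE and upper-quartile factors, DESeq2 (1.42.0), limma-voom (limma 3.58.1) without and with quality weights, edgeR with robust estimation off, all genes kept, a minimum of 1 CPM in 3 libraries, each library left out in turn, blocks on the replicate number and on the run of mouse numbers, Xist as a covariate (log2 CPM, prior count 2), and GC and length offsets (loess, span 0.3) without and with the replicate block. The count of members without overlap under other scalings and the microglia marker sum without Tmem119 were added after seeing the data.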

Additional observations from a re-analysis of the deposited data

Results flagged for a closer look

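Among the genes of the WAVE and WASP families, Abi2, a paralog of Abi1 and Abi3, had 1 library apart from the rest of its group. Its level was 22.6 CPM in cKO replicate 4, against 31.6, 30.2 and 30.6 CPM in cKO replicates 1 to 3. The gap to the nearest library, relative to the range of the 4 libraries, was above Dixon's 95% critical value. In all, 14 genes were examined in this way, and chance marks about 1 in 20 groups. The same library held the lowest Wasl level and the highest Was, Nckap1l, Abi3 and Brk1 levels. What these have in common was not tested.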

How the results depend on the processing

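The number of genes called, 43, was 538 with DESeq2, 904 with sample quality weights, 89 with no filter, 288 with the replicate block, 170 with the block on the run of mouse numbers, 1056 with the Xist covariate, 650 with GC content and length offsets and 691 with these offsets and the replicate block. Leaving out single libraries gave 4 (without WT replicate 2) to 142 (without cKO replicate 1). The number of members called higher in cKO, 0, was 1 with DESeq2 (3.12% of all genes called higher) and 2 with quality weights (4.27%). It was 1 with the Xist covariate (6.21%), 3 with the offsets (4.39%) and 3 with the offsets and the replicate block (4.28%). In the last of these adjusted p was 0.032 for Brk1, 0.039 for Abi1 and 0.049 for Was. It was 0 in limma-voom without weights and on leaving out any single library, and the number called lower was 0 throughout. The cause of these differences was not tested. Members without overlap numbered 3 under upper-quartile scaling, against 7.66% of all genes under that scaling. Wasf2 reversed to −0.039 without WT replicate 2, and leaving out single libraries gave −0.04 to 0.16. The other 9 members kept their sign in all 20 alternatives, which reuse the same libraries and are not independent. Leaving out single libraries gave 0.40 to 0.62 for Brk1, 0.27 to 0.40 for Abi1, 0.16 to 0.24 for Was, 0.15 to 0.68 for Cyfip2, −0.26 to −0.04 for Wasl, −0.22 to −0.04 for Abi3 and 0.04 to 0.18 for Wipf1. Srgap2 passed in all 20 alternatives. The replicate numbers were not taken to pair the samples, since deviations of same-numbered libraries had correlations of 0.387, 0.069 and −0.173. With the replicate block 0 members were called, and Brk1 had 0.40 (adjusted p = 0.060). No WT library has the replicate number 4, so under that block cKO replicate 4 did not add to the estimate of the group difference. Leaving out cKO replicate 4 without the block also gave 0.40 for Brk1 (adjusted p = 0.12). Counts were low for Cyfip2, at 35 to 85, for its fellow tested gene Nckap1, at 17 to 53, and for the paralogs Wasf1, Wasf3 and Wipf3.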

Other observations

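In the neighbouring pathway lists, some related genes were chosen after their values were seen. Levels are CPM per kb of the longest coding transcript. Hcls1, which encodes the blood-cell relative of cortactin, was at 397 ± 54.7 CPM per kb in cKO and 308 ± 3.50 CPM per kb in WT (SD, n = 4 and 3), while Cttn, the cortactin gene, was at 0.0764 ± 0.0209 CPM per kb in cKO and 0.0529 ± 0.0419 CPM per kb in WT. Of the adaptor genes that link receptors to WASP, Nck1 was at 7.26 ± 0.913 CPM per kb in cKO and 7.06 ± 0.406 CPM per kb in WT, and Nck2 was at 0.0439 ± 0.0553 CPM per kb in cKO and 0.0288 ± 0.0193 CPM per kb in WT. The Rac exchange factor gene Vav1, a blood-cell gene, was at 273 ± 24.1 CPM per kb in cKO and 298 ± 10.8 CPM per kb in WT, against 29.0 ± 1.25 CPM per kb in cKO and 36.4 ± 8.42 CPM per kb in WT for Vav2. In the other direction, Rac2, the blood-cell form of Rac, was at 71.0 ± 10.7 CPM per kb in cKO and 53.1 ± 5.24 CPM per kb in WT, below the broadly expressed Rac1 at 129 ± 6.98 CPM per kb in cKO and 96.7 ± 4.67 CPM per kb in WT.

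Abi3 spread more among the cKO libraries than among the WT libraries, with an SD of 86.6 CPM in cKO microglia and 11.3 CPM in WT microglia, and the difference in spread was not tested.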
